A study of Homo sapiens with 9 samples.

Results

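The aldo-keto reductase family 1 (AKR1) genes were described in MDA-MB-231 cells, an established human breast adenocarcinoma line, after treatment with a herbal injection. The 6 genes AKR1A1, AKR1B1, AKR1B10, AKR1C1, AKR1C2 and AKR1C3 were taken by symbol from the 24344 genes of the deposited count table, and all 6 were among the 14195 genes that passed the filter on low counts. They were selected on earlier results of these same libraries, in which AKR1B10 was among the genes most increased over Baituling injection. Their differences between injections are therefore given as a description and without a test of these genes as a set. Calls from the test over all genes are given, but nothing is read from them. Cells received for 48 h either Compound Kushen Injection (CKI, prepared from the herbs Kushen and Baituling) at 2.0 mg/mL, Kushen injection alone or Baituling injection alone, each single injection in the proportion it has in CKI. Each treatment had 3 libraries of unstranded paired-end RNA-seq, prepared from total RNA of the same line. The labels do not say whether the 3 came from separate cultures, so the spread between them may be technical. Untreated cells were not analysed here, and every difference is therefore between injections.

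AKR1 enzymes are soluble, NADPH-dependent oxidoreductases that reduce aldehydes and ketones to alcohols. AKR1A1 is the general aldehyde reductase, AKR1B1 is aldose reductase and opens the polyol pathway by reducing glucose to sorbitol, and AKR1B10 is a close relative with high activity toward retinal. The AKR1C enzymes are ketosteroid reductases: AKR1C1 inactivates progesterone, AKR1C2 inactivates dihydrotestosterone, and AKR1C3 forms testosterone and prostaglandin F. Several of these genes are known targets of NRF2, the transcription factor that responds to electrophiles.

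On build GRCh37, AKR1A1 lies on chromosome 1 (46016215 to 46035721, plus strand). AKR1B1 (134127108 to 134144036, minus strand) and AKR1B10 (134212319 to 134226164, plus strand) are neighbours on chromosome 7. On chromosome 10 AKR1C1 (5005445 to 5025475, plus strand), AKR1C2 (5029967 to 5060223, minus strand) and AKR1C3 (5077546 to 5149878, plus strand) form a cluster. AKR1C2 and AKR1C3 overlap annotated genes on the opposite strand, and reads of such overlaps could not be told apart without strand. AKR1C3 also overlaps an annotated gene on its own strand, which strand would not resolve. These overlaps are of whole gene spans, introns included.

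The AKR1C genes are near copies, which bears on how their reads were divided. The coding sequences of AKR1C1 and AKR1C2 differed at 19 of 969 bases (98% identity), and the longest run without a difference was 186 bases. AKR1C3 was 91.4% identical to AKR1C1, and AKR1B1 was 77.4% identical to AKR1B10. A stretch of exon 2, from coding base 103 to 162, holds 10 of the 19 differences and is shown because reads across it separate AKR1C1 from AKR1C2. Capitals mark the positions at which these 2 genes differ, and AKR1C3 is shown with the same positions in capitals. The stretch lies at chr10:5008124-5008183 in AKR1C1 (plus strand), at chr10:5043796-5043855 in AKR1C2 (minus strand) and at chr10:5138620-5138679 in AKR1C3 (plus strand), all on GRCh37, and each is written 5′ to 3′ along its gene.
AKR1C1: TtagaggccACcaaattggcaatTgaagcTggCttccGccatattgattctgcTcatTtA
AKR1C2: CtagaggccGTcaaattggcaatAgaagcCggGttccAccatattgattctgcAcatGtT
AKR1C3: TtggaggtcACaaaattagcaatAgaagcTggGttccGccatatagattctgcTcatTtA

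Windows of 150 bases were taken along a representative transcript of each gene, of 6543 bases in AKR1C1, 3215 in AKR1C2 and 1186 in AKR1C3. Those found unchanged in another AKR1C gene were 506 (7.91%) in AKR1C1, 528 (17.2%) in AKR1C2 and 22 (2.12%) in AKR1C3. The percentages of AKR1C1 and AKR1C2 thus differ mostly through transcript length. All shared windows of AKR1C1 were shared with AKR1C2 only. No such window was shared by AKR1A1, AKR1B1 or AKR1B10.

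The sequences around the annotated starts of AKR1C1 and AKR1C2 were also closely alike. Over windows of 300 bases, RefSeq promoter sequences on GRCh38.p14 were found for 5 of the 6 genes, all but AKR1B10. Those of AKR1C1 and AKR1C2 were identical at 288 of 292 aligned bases (98.6%), against 78% between AKR1C1 and an AKR1C3 window. The 250 bases before the start are shown for both genes, chr10:4963165-4963414 on the plus strand and chr10:5003858-5004107 on the minus strand. Capitals mark bases with no identical partner in the window of the other gene.
AKR1C1: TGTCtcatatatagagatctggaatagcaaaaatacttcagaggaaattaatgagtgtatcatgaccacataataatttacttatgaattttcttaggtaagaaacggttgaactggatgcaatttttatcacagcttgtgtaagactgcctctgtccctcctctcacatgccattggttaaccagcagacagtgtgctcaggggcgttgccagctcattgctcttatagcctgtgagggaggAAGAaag
AKR1C2: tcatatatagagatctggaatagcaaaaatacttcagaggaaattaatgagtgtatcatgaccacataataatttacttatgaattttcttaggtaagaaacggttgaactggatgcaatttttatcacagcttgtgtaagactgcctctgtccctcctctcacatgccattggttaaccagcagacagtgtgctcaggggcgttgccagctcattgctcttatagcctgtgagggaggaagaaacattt

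Both strands of these promoter windows were searched for the antioxidant response element core TGACNNNGC, which NRF2 binds, the AP-1 site TGANTCA and the dioxin response element core GCGTG. The first was present in 13.3% of 35116 RefSeq promoter windows of the same length, the second in 7.71% and the third in 36.5%. AKR1B10 had no window to search, and sequence more than 250 bases before a start was not searched in any gene. Among the windows of the other genes the only match was a GCGTG on the opposite strand of AKR1B1, held by both of its overlapping windows. It is in capitals in the 250 bases before 1 of the 2 annotated AKR1B1 starts, at chr7:134459240-134459489 (GRCh38.p14, minus strand).
AKR1B1: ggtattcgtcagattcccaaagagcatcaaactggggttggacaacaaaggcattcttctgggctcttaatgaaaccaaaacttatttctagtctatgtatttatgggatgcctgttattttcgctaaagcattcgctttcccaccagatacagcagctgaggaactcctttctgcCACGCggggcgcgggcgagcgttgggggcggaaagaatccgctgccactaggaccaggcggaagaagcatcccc

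Expression of the 6 genes was then examined in each library. Levels are in CPM, gene counts divided by the TMM-scaled size of the library and multiplied by a constant shared by all libraries. CKI over Kushen stands for the ratio of CKI to Kushen, and likewise for the other pairs. The SE of a log2 fold change is its absolute value divided by the square root of the F statistic of its edgeR test. Where a group holds few counts, as for AKR1B10, AKR1C1 and AKR1C2 in Baituling, this SE can be smaller than counting error alone. The levels of 5 genes were ordered CKI above Kushen above Baituling with no overlap between any of the groups, and AKR1A1 showed the reverse order, which library totals in place of TMM did not keep between Kushen and Baituling. The 6 genes together amounted to 1118 to 1179 CPM in CKI libraries, 752 to 771 CPM in Kushen libraries and 275 to 296 CPM in Baituling libraries. AKR1B1 made up 66.4% to 67.2% of these counts in Baituling, 73% to 74.2% in Kushen and 77.2% to 77.6% in CKI. In bulk libraries fewer cells that express a gene and less RNA of it per cell cannot be told apart.

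**Figure D1:**
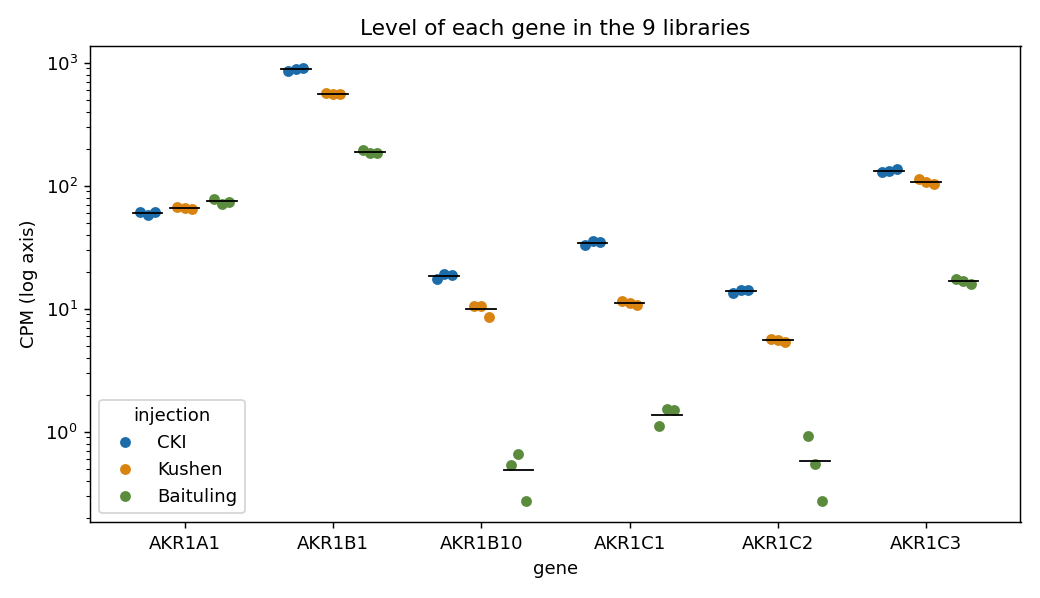
CPM on a log axis for each gene, with 1 point per library (CKI blue, Kushen orange, Baituling green, 3 each) and a black line at the mean of the group. In 5 genes the points descend from CKI to Baituling without overlap, whereas AKR1A1 lies between 57.7 and 78.5 CPM in all libraries.

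AKR1A1, the aldehyde reductase, varied least among these genes. It measured 61.3, 57.7 and 61.2 CPM in CKI, 67.8, 66.4 and 64.8 CPM in Kushen, and 78.5, 71.4 and 74.4 CPM in Baituling. The groups did not overlap, with CKI lowest and Baituling highest. Its log2 fold change was -0.14 ± 0.05 (SE) in CKI over Kushen, -0.32 ± 0.05 in CKI over Baituling and -0.17 ± 0.05 in Kushen over Baituling. When library totals replaced TMM these values were -0.07, -0.03 and 0.04, a scaling that moved the median of the genes tested from 0.01, 0.03 and 0.02 to 0.08, 0.32 and 0.23, so its small differences, and the direction of the last, depend on the scaling.

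AKR1B1, aldose reductase, had the highest level of the 6 genes in every library, both as CPM and per length. It measured 863, 893 and 913 CPM in CKI, 563, 555 and 558 CPM in Kushen, and 197, 186 and 183 CPM in Baituling. By mean CPM it was the gene of rank 71 of 14195 in CKI, 206 in Kushen and 1251 in Baituling. The log2 fold change was 0.67 ± 0.04 in CKI over Kushen, 2.24 ± 0.04 in CKI over Baituling and 1.57 ± 0.04 in Kushen over Baituling. The mean in CKI was thus 890 ± 25.3 CPM (SD, n = 3) against 189 ± 7.37 CPM in Baituling, a 4.72-fold difference.

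AKR1B10, the retinal reductase, was close to undetected in Baituling libraries, where its counts were 11, 12 and 5. They were 443, 475 and 477 in CKI and 264, 255 and 192 in Kushen. As CPM this was 17.4, 19.1 and 18.8 in CKI, 10.6, 10.5 and 8.52 in Kushen, and 0.537, 0.658 and 0.276 in Baituling. Kushen replicate 3 was the lowest of its group but still far above every Baituling library. The log2 fold change was 5.21 ± 0.18 in CKI over Baituling and 4.31 ± 0.20 in Kushen over Baituling. Both rest on the few Baituling counts, for which these SE are likely too small. Between CKI and Kushen, where counts were ample, it was 0.90 ± 0.10, a 1.87-fold difference.

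AKR1C1, the progesterone-inactivating reductase, had a larger ratio of CKI to Kushen than the other 5 genes as the reads were assigned. The AKR1C counts added up, which are mostly those of AKR1C3, gave 0.53 on the log2 scale, below AKR1B1 and AKR1B10. AKR1C1 measured 32.8, 35.8 and 34.6 CPM in CKI, 11.5, 11.2 and 10.7 CPM in Kushen, and 1.12, 1.54 and 1.49 CPM in Baituling. The log2 fold change was 1.63 ± 0.07 in CKI over Kushen, 4.64 ± 0.11 in CKI over Baituling and 3.02 ± 0.13 in Kushen over Baituling. A CKI library thus held 837 to 889 counts, a Kushen library 242 to 286 and a Baituling library 23 to 28.

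AKR1C2, which inactivates dihydrotestosterone, followed the same order at a lower level. It measured 13.5, 14.3 and 14.3 CPM in CKI, 5.71, 5.54 and 5.41 CPM in Kushen, and 0.927, 0.548 and 0.276 CPM in Baituling. The last 3 values came from 19, 10 and 5 counts, and relative to their mean they spread more widely than those of the other groups. The log2 fold change was 1.33 ± 0.12 in CKI over Kushen, 4.54 ± 0.19 in CKI over Baituling and 3.21 ± 0.22 in Kushen over Baituling.

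AKR1C3, which forms testosterone and prostaglandin F, was the most abundant AKR1C gene in all libraries, also per length. It measured 130, 131 and 137 CPM in CKI, 113, 107 and 104 CPM in Kushen, and 17.6, 16.8 and 15.9 CPM in Baituling. CKI and Kushen did not overlap but were close, with a log2 fold change of 0.30 ± 0.05, a 1.23-fold difference. Against Baituling the values were 2.98 ± 0.06 for CKI and 2.68 ± 0.06 for Kushen.

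Calls required both an adjusted p under 0.05 in edgeR's quasi-likelihood test over all genes and a log2 fold change above 1 or below -1. By this rule AKR1C1 and AKR1C2 (2 of 6) were called higher in CKI than in Kushen, where 1.7% of all genes tested were called higher and 0.197% lower. In CKI over Baituling 5 of 6 were called higher, all but AKR1A1, against 11.2% of all genes higher and 7.91% lower. The same 5 were called higher in Kushen over Baituling, against 8.5% higher and 6.73% lower. All 3 libraries of the first group lay above all 3 of the second for 5 of the 6 genes in each comparison, and for 25.2%, 40.3% and 36.4% of all genes tested in the same order. Because the genes were chosen by these contrasts nothing is read from these counts. The comparisons with Baituling also share the Baituling libraries.

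**Figure D2:**
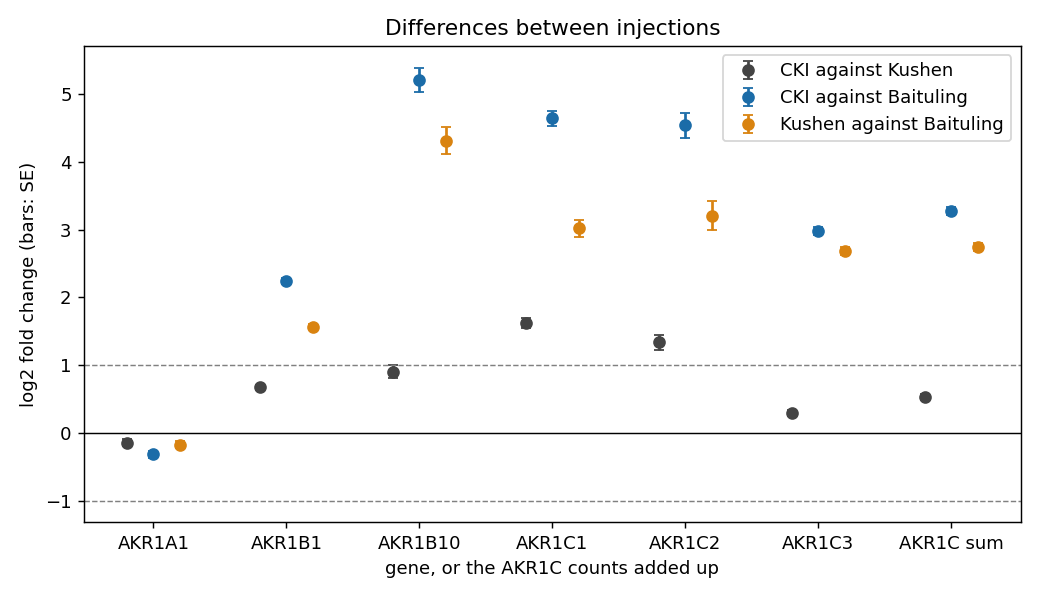
Log2 fold change with its SE for each gene in the 3 comparisons, and for the AKR1C counts added up before the fit, with dashed lines at 1 and -1. AKR1C1 and AKR1C2 exceed 1 in CKI over Kushen, and the added AKR1C counts, mostly those of AKR1C3, give 0.53.

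Since AKR1C reads may be divided between copies, the counts of AKR1C1, AKR1C2, AKR1C3 and the barely detected AKR1C4 were also added up. The sum was 4491 to 4701 counts in CKI libraries, 2718 to 3232 in Kushen libraries and 320 to 403 in Baituling libraries. Its log2 fold change was 3.27 ± 0.06 in CKI over Baituling and 2.74 ± 0.06 in Kushen over Baituling. In CKI over Kushen it was 0.53 ± 0.05, so the summed row would not be called there. Whether AKR1C1 and AKR1C2 without AKR1C3 would be called was not tested. The sum is mostly AKR1C3, which accounted for 73.2% ± 0.825 (SD, n = 3) of the counts of the first 3 genes in CKI, 86.6% ± 0.145 in Kushen and 89.5% ± 0.510 in Baituling. AKR1C1 accounted for 19.0% ± 0.678, 8.94% ± 0.102 and 7.42% ± 1.49, and AKR1C2 for 7.74% ± 0.148, 4.46% ± 0.0538 and 3.06% ± 1.58, in the same order.

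**Figure D3:**
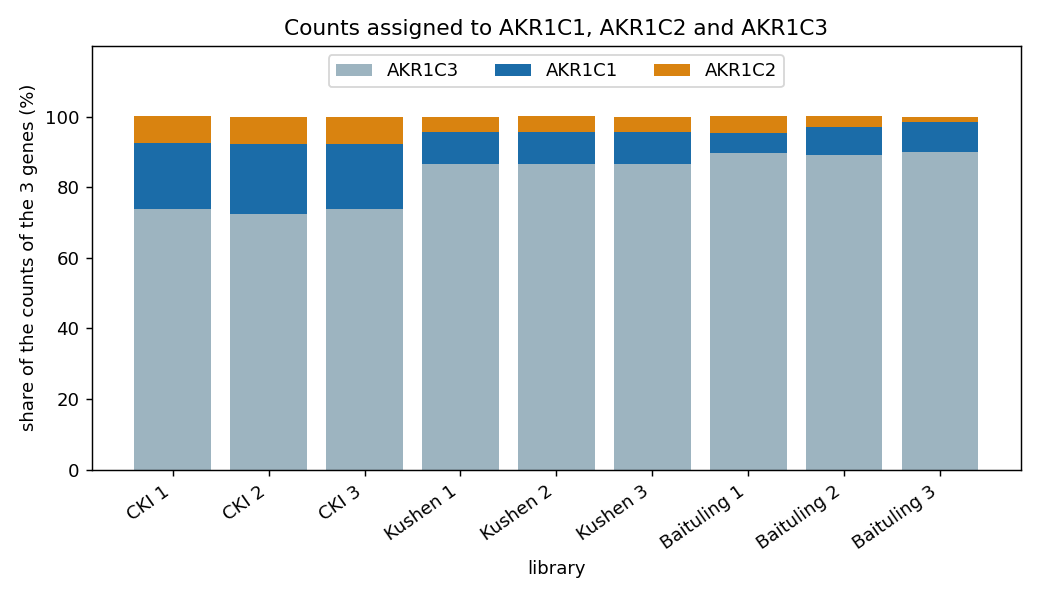
Share, in percent, of the counts of AKR1C1, AKR1C2 and AKR1C3 assigned to each gene in each of the 9 libraries. AKR1C3 takes 72.3% to 73.8% in CKI libraries and 86.5% to 90% in the others.

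The ratio of AKR1C1 to AKR1C2 counts was 2.43 to 2.5 in CKI libraries and 1.98 to 2.01 in Kushen libraries. In Baituling libraries it was 1.21, 2.80 and 5.40, on too few counts to give an order. AKR1C3 exceeded AKR1C1 3.65 to 3.96 times in CKI libraries, 9.55 to 9.79 times in Kushen libraries and 10.7 to 15.7 times in Baituling libraries. The balance within the cluster therefore differed between CKI and Kushen by more than the spread between libraries, but the part of read assignment in this was not tested.

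Levels of different genes were compared after division by the coding length. In CKI, AKR1B1 (938 ± 26.7 CPM per kilobase, SD, n = 3) was followed by AKR1C3 (137 ± 3.78), AKR1A1 (61.6 ± 2.10), AKR1C1 (35.5 ± 1.55), AKR1B10 (19.5 ± 0.994) and AKR1C2 (14.5 ± 0.493). The order in Kushen was the same, but AKR1C1 (11.1 to 11.9 CPM per kilobase) and AKR1B10 (8.98 to 11.2) overlapped there. In Baituling AKR1A1 (76.7 ± 3.65) stood above AKR1C3 (17.3 ± 0.884), and AKR1C1 (1.43 ± 0.234) was followed by AKR1C2 (0.602 ± 0.337) and AKR1B10 (0.517 ± 0.206), which overlapped. With all annotated exon bases in place of the coding length the mean of AKR1B10 stood above that of AKR1C1 in each group, with overlapping libraries in Baituling, since the exons of AKR1C1 add up to 8765 bases and those of AKR1B10 to 1773.

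The closest relatives of these genes were barely detected. AKR1B15, whose coding sequence is 94.2% identical to that of AKR1B10, had 7 to 11 counts in CKI libraries, 8 in each Kushen library and 0 to 2 in Baituling libraries. Adding its counts to AKR1B10 changed the log2 fold change to 5.14 ± 0.18 in CKI over Baituling. AKR1C4, a liver enzyme of the same cluster, had 1 to 7 counts in CKI libraries, 1 to 4 in Kushen libraries and 0 in all 3 Baituling libraries, where a count of 0 allows up to 3 counts, or 0.128 to 0.149 CPM of the unscaled total. This limit covers counting error only. Neither gene passed the filter.

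Neighbouring genes within 250 kb were also examined, a choice made after the values of the family were seen. Beside the AKR1C cluster the only other gene tested was AKR1E2, a further aldo-keto reductase, with a log2 fold change of 0.01 ± 0.17 in CKI over Baituling (adjusted p 0.964) and -0.12 ± 0.17 in Kushen over Baituling (adjusted p 0.537, edgeR). Around AKR1B1 and AKR1B10 the actin-binding protein gene CALD1 (-0.46 ± 0.05), BPGM of the red cell glycolytic shunt (0.64 ± 0.06) and the sugar transporter gene SLC35B4 (-0.23 ± 0.07) were tested in CKI over Baituling, and none was called in any comparison. Around AKR1A1, 12 genes were tested, of which 1 was called higher and 3 lower in CKI than in Baituling. In Kushen over Baituling 2 of them were called lower and none higher, and none was called in CKI over Kushen. Over all genes tested the shares called higher and lower were 11.2% and 7.91%, 8.5% and 6.73%, and 1.7% and 0.197%, in the same order. The neighbours are too few to compare with these shares.

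In the wider superfamily, 10 of 11 listed aldo-keto reductases were in the table and 7 were tested. None was called in CKI over Kushen. Calls were 2 higher and 1 lower in CKI over Baituling, and 1 higher in Kushen over Baituling. Over all genes tested the shares called higher and lower were 1.7% and 0.197%, 11.2% and 7.91%, and 8.5% and 6.73%, in the same order. With 7 genes these counts are too few to compare. The potassium channel subunit gene KCNAB2 was higher than in Baituling by 1.15 ± 0.09 in CKI (edgeR adjusted p 1.05e-09) and by 1.40 ± 0.09 in Kushen (adjusted p 6.4e-11). AKR7L rose by 1.19 ± 0.42 in CKI over Baituling (adjusted p 0.0163), at under 1 CPM, and the potassium channel subunit gene KCNAB3 changed by -1.28 ± 0.23 (adjusted p 4.25e-05), a call lost under library totals (-0.99). The median log2 fold change of the 7 genes was -0.25, 0.01 and 0.41 in CKI over Kushen, CKI over Baituling and Kushen over Baituling, beside 0.01, 0.03 and 0.02 for all genes and 0.79, 3.76 and 2.85 for the AKR1 genes. Under library totals the medians of the 7 genes were -0.17, 0.30 and 0.63, beside 0.08, 0.32 and 0.23 for all genes.

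Other enzymes of carbonyl and aldehyde metabolism were called in both directions, at shares near those of all genes. Of 30 tested genes, CKI had 4 called higher and 4 called lower than Baituling did, with 3 higher and 4 lower in Kushen than in Baituling and none in CKI over Kushen. Over all genes tested the shares were 11.2% higher and 7.91% lower for CKI over Baituling, and 8.5% and 6.73% for Kushen over Baituling. For CKI over Kushen they were 1.7% and 0.197%. Under library totals the counts were 5 higher and 3 lower for the first and 6 higher and 3 lower for the second, so the balance of directions depends on the scaling. Their median log2 fold change was -0.16 in CKI over Kushen, -0.15 in CKI over Baituling and -0.03 in Kushen over Baituling, of which the last 2 were 0.14 and 0.18 under library totals. The prostaglandin reductase gene PTGR1 rose by 1.35 ± 0.05 in CKI over Baituling (edgeR adjusted p 3.75e-15), and the fatty aldehyde dehydrogenase gene ALDH3A2 rose by 1.05 ± 0.05 (adjusted p 6.43e-14). The retinaldehyde dehydrogenase gene ALDH1A3 changed by -1.57 ± 0.10 (adjusted p 2.84e-11). The carbonyl reductase genes diverged, with 128, 124 and 84 CPM for CBR1 and 7.38, 8.21 and 19.3 CPM for CBR3 in CKI, Kushen and Baituling. CBR3 was called in CKI over Baituling (-1.39 ± 0.11, adjusted p 5.65e-10), while CBR1 (0.61 ± 0.05) did not reach the fold threshold.

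SORD, sorbitol dehydrogenase, catalyses the step of the polyol pathway after AKR1B1. It averaged 19.0 CPM in CKI, 20.6 CPM in Kushen and 40.0 CPM in Baituling, the reverse of AKR1B1. Its log2 fold change was -1.08 ± 0.06 in CKI over Baituling (edgeR adjusted p 3.77e-12) and -0.96 ± 0.06 in Kushen over Baituling (adjusted p 3.12e-11), and it was -0.12 ± 0.06 in CKI over Kushen (adjusted p 0.13). Under library totals the first was -0.79 and no longer past the fold threshold.

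Among 23 tested genes of steroid and retinoid metabolism, 3 were called higher and 2 lower in CKI than in Baituling, 2 higher and 2 lower in Kushen than in Baituling, and 1 in each direction between CKI and Kushen. Against Baituling these are shares near those of all genes tested, 11.2% higher and 7.91% lower for CKI and 8.5% and 6.73% for Kushen. In CKI over Kushen 1.7% of all genes tested were called higher and 0.197% lower, and 1 gene in each direction is too few to compare. The median log2 fold change was 0.11 in CKI over Kushen, 0.04 in CKI over Baituling and -0.05 in Kushen over Baituling, and under library totals it was 0.18, 0.32 and 0.16. HSD11B1, which regenerates cortisol, rose by 3.01 ± 0.10 in CKI over Baituling (edgeR adjusted p 8.52e-16) and by 2.85 ± 0.10 in Kushen over Baituling (adjusted p 3.63e-15). The retinol dehydrogenase gene RDH10 rose by 1.35 ± 0.08 in CKI over Baituling (adjusted p 4.69e-12), and HSD17B1, which forms estradiol, by 1.08 ± 0.17 (adjusted p 1.43e-05). HSD3B7 of bile acid synthesis changed by -1.60 ± 0.07 in CKI over Baituling (adjusted p 3.34e-14). For HSD17B8 the log2 fold change was -1.64 ± 0.09 in CKI over Baituling (adjusted p 1.24e-12) and -1.20 ± 0.09 in CKI over Kushen (adjusted p 4.59e-09).

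All genes of the NRF2 pathway list that were called against Baituling were higher than in Baituling. Of 27 tested genes 14 were called higher in CKI than in Baituling and 12 higher in Kushen than in Baituling, with none lower in either, where 11.2% and 8.5% of all genes tested were called higher and 7.91% and 6.73% lower. Under library totals 16 were called higher in each of these comparisons. The log2 fold change was above 0 for 21 of the 27 in CKI over Baituling and for 23 of the 27 in Kushen over Baituling. None was called in CKI over Kushen, where 1.7% of all genes tested were called higher and 0.197% lower. At such shares few or none of 27 genes would be called, and nothing is read from this. The median log2 fold change there was 0.00. The medians against Baituling were 1.03 for CKI and 0.96 for Kushen. GCLM, a subunit of the enzyme that starts glutathione synthesis, rose by 2.38 ± 0.05 in CKI over Baituling (edgeR adjusted p 6.81e-19) and by 2.36 ± 0.05 in Kushen over Baituling (adjusted p 1.66e-18). Its difference between CKI and Kushen was 0.02 ± 0.04 (adjusted p 0.69).

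In CKI over Baituling the thioredoxin reductase gene TXNRD1 rose by 1.36 ± 0.04 (edgeR adjusted p 2.7e-16), the cystine transporter gene SLC7A11 by 1.81 ± 0.05 (adjusted p 1.36e-16), malic enzyme ME1 by 1.87 ± 0.05 (adjusted p 1.44e-16) and TRIM16L by 2.24 ± 0.06 (adjusted p 2.37e-17). NQO1, the quinone reductase, averaged 192 CPM in CKI, 231 CPM in Kushen and 119 CPM in Baituling, and its log2 fold changes of 0.70 ± 0.04 and 0.96 ± 0.04 over Baituling were under the fold threshold, although the second was 1.17 and past it under library totals. The transcript of NRF2 itself, NFE2L2, averaged 97.3, 82.1 and 78.8 CPM in CKI, Kushen and Baituling. KEAP1, which marks NRF2 for degradation, averaged 125, 111 and 155 CPM, and its log2 fold change in CKI over Baituling, -0.31 ± 0.05, was -0.02 under library totals. That scaling raised the median of all genes tested in CKI over Baituling from 0.03 to 0.32, a shift that NFE2L2 shares. Neither NFE2L2 nor KEAP1 was called in any comparison.

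**Figure D4:**
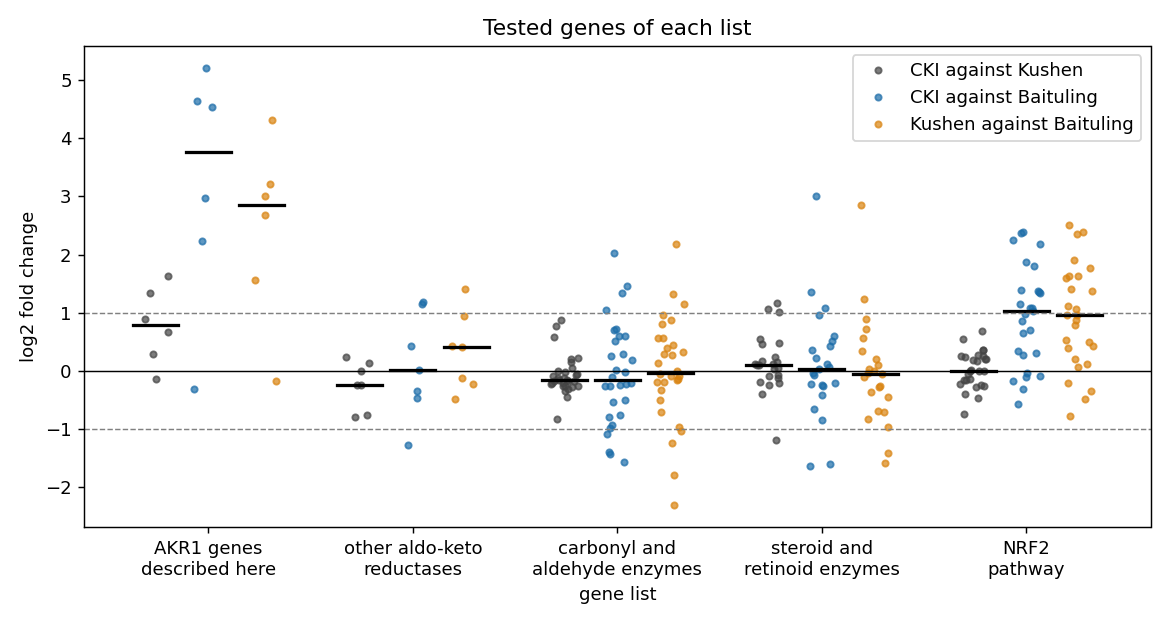
Log2 fold change of each tested gene of 5 lists in the 3 comparisons, with 1 point per gene, black bars at medians and dashed lines at 1 and -1. The medians of the AKR1 genes and of the NRF2 pathway are above those of the other lists in both comparisons with Baituling, while in CKI over Kushen the NRF2 median is at 0.00. The AKR1 genes and the lists were chosen with earlier results of these data known, so nothing is read from this order.

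The genes whose levels followed those of the family most closely were found by the root mean square difference of log2 CPM over the 9 libraries, each gene centred on its own mean, as a description. AKR1A1 was followed by TIMM21 (0.02), CNBP (0.03) and JPT2 (0.03). The nearest genes to AKR1B1 were ZNF841 (0.10), TMEM86A (0.10) and KDM7A (0.13). AKR1C3 had IFITM10 (0.11), PSG1 (0.13) and HSD11B1 (0.14) nearest. The other genes had no such close match. AKR1B10 was nearest to CYP1A1 (0.45), LUM (0.62) and LUCAT1 (0.67), and AKR1C1 to H1-2 (0.27), LUM (0.38) and CYP1B1-AS1 (0.44). AKR1C2 was nearest to LUM (0.41), H1-2 (0.50) and LUCAT1 (0.53). The AKR1 genes themselves were not candidates. Few Baituling counts may widen the distances of AKR1B10, AKR1C1 and AKR1C2, which was not tested. CYP1A1 averaged 156, 59.2 and 2.41 CPM in CKI, Kushen and Baituling, H1-2, a histone gene, 346, 121 and 19.7 CPM, and LUM 6.89, 3.40 and 0.348 CPM. PSG1 and H1-2 have near copies of their own, and CYP1B1-AS1, HSD11B1, LUCAT1 and TMEM86A overlap genes on the opposite strand. So do SORD, CBR1, CBR3, KCNAB2, ALDH3A2, PTGR1, ALDH1A3, HSD3B7, RDH10, HSD17B1, NFE2L2, NQO1, TXNRD1, SLC7A11 and ME1 of the gene lists, whose counts could include reads of those partners.

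The libraries held 20144628 to 23782071 counts each, and no 2 replicates agreed within sampling noise. The markers listed as present in the line, VIM, CD44, EGFR, CAV1 and AXL, were all found, between 162 and 2116 CPM in every library. Of the markers listed as low, ESR1 and PGR were at most 0.177 CPM, CDH1 was at most 2.82 CPM and EPCAM at most 13.8 CPM, whereas ERBB2 reached 55.6 to 105 CPM. VIM, CD44, CAV1 and AXL were all lower in CKI and in Kushen than in Baituling, and EGFR was higher. Means in CKI, Kushen and Baituling were 351, 584 and 2070 CPM for VIM and 616, 644 and 904 CPM for CD44. In the same order they were 178, 169 and 467 CPM for CAV1 and 534, 765 and 1025 CPM for AXL. For EGFR they were 427, 424 and 247 CPM. The part of such shifts in the AKR1 values was not tested.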

How the data were processed

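RNA-seq of MDA-MB-231 cells was available as 9 libraries, 3 each for CKI, Kushen and Baituling at 48 h, grouped by their titles. Per the labels and the study's methods the authors trimmed reads with Trim Galore 0.3.7, aligned them with STAR 2.5.3a to hg19 and deposited a table of raw counts per gene, not normalized. The counting program, its annotation and its handling of reads that match several genes are not given in the sources used here. Of 24566 rows, 222 repeated an Ensembl gene and were removed. Symbols and positions came from GENCODE on GRCh37 (24224 genes) and RefSeq names (99 genes), and 21 genes stayed unnamed.

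Genes were kept by filterByExpr of edgeR 4.0.16 in R 4.3.3 (minimum count 10, minimum total 15), scaled by TMM and fitted by group (glmQLFit, glmQLFTest, two-sided, Benjamini-Hochberg adjustment over 14195 genes). With 3 libraries a group, the smallest p of an exact permutation test is 0.1. The fit was tested on simulated data. The AKR1 genes and the gene lists were chosen with earlier results of these data known. All 6 AKR1 genes were named. From each list up to 5 called genes with the smallest adjusted p were named, besides relatives, SORD, CBR1, CBR3, NQO1, NFE2L2 and KEAP1, and so were the 3 genes closest to each AKR1 gene, taken where mean log2 CPM was 1 or more (prior count 0.5). Sequence identity was computed on coding sequences, and protein sequences were not used here. Alternatives were DESeq2 1.42.0, other scalings and filters, fold-free calls, 2-group fits, a replicate block, near copies summed, rows as deposited and each library left out. Scalings for the gene lists were added after seeing the data.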

Additional observations from a re-analysis of the deposited data

How the results depend on the processing

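Of 336 log2 fold changes of the AKR1 genes under 19 alternatives, 327 kept their direction and their side of the call rule. The direction of AKR1A1 in Kushen against Baituling turned to 0.039 under library totals. With near copies summed, AKR1C1, AKR1C2 and AKR1C3 shared the same row, whose 0.53 left 0 of the 6 genes called in CKI against Kushen. That row is mostly AKR1C3, so it does not show whether AKR1C1 and AKR1C2 without AKR1C3 would keep their calls. This was not tested. With an adjusted p under 0.05 at any fold change, all 6 were past the rule in CKI against Kushen, and 5652, 10802 and 10168 genes in all were called in CKI against Kushen, CKI against Baituling and Kushen against Baituling, in place of 270, 2715 and 2162. Requiring 10 counts in every library removed AKR1B10 and AKR1C2, which fell under 10 in 1 Baituling library each. That left 1, 3 and 3 AKR1 genes called and 102, 1808 and 1415 genes in all, in the same order.

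Leaving out each library in turn gave 2, 5 and 5 AKR1 genes called every time. Deviations of samples with the same replicate number had correlations of -0.071 to 0.114. Samples of different numbers were not compared in this way, so whether the numbers pair the samples was not settled. A replicate block gave 269, 2713 and 2158 called genes, with 2, 5 and 5 AKR1 genes among them. Under library totals, an alternative chosen after seeing the data for the gene lists, 4 genes of steroid and retinoid metabolism were called in CKI against Kushen in place of 2, and 2 other aldo-keto reductases in Kushen against Baituling in place of 1. Depth limits AKR1B10, AKR1C1 and AKR1C2 in Baituling, where a library held 5 to 28 counts.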
